A study of Mus musculus with 6 samples.

Results

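The 10 genes described here code for receptors, adaptors and kinases of mitophagy, the removal of mitochondria by autophagy. They are Pink1, Tbk1, Bnip3, Bnip3l, Fundc1, Phb2, Fkbp8, Sqstm1, Optn and Calcoco1. Their rows were matched by symbol, and 10 of 10 were found among 35434 rows of the deposited table. The genes were chosen with earlier results of these data known. RNA was measured in 6 libraries of bone marrow-derived macrophages (BMDMs) from femurs of C57BL/6 mice, cultured for 7 days with 10 ng/ml of M-CSF, the growth factor that turns marrow cells into macrophages. The 3 Ctrl libraries came from untreated cells and the 3 ZA libraries from cells given zoledronic acid (ZA), a nitrogen-containing bisphosphonate used against bone resorption, for 12 h. No gene was deleted in either group. The study's wild-type mice were females obtained at 6 weeks of age. The ZA concentration behind these libraries and the age at which the marrow was taken are not given in the sources used here, and nothing says whether the replicates came from separate animals or cultures, so the p-values measure the spread between these libraries only.

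In mitophagy, a mitochondrion is marked and then joined to the growing autophagosome membrane through small Atg8 proteins such as LC3. In the PINK1 pathway, the kinase PINK1 builds up on depolarized mitochondria and phosphorylates ubiquitin, and soluble adaptors then bind both the ubiquitin chains and LC3. In the receptor pathway, proteins that sit in the mitochondrial membranes bind LC3 themselves. Much of this control acts on proteins, through stabilization and phosphorylation, which RNA libraries do not measure. The comparison of ZA with Ctrl therefore asks whether the transcript supply of these genes had changed.

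No member passed the test. With limma, 0 of the 10 genes had an adjusted p under 0.05, against 0.367% of all 9799 genes tested. The median log2 fold change of the members was 0.01, as was that of all genes tested (0.01). Calcoco1 was the 1 member with an unadjusted p under 0.05 and the 1 member whose 3 ZA values all lay above its 3 Ctrl values. Among all genes, 7.50% had an unadjusted p under 0.05 with the ZA mean higher and 4.85% with it lower, and 11.4% lay wholly higher in ZA, so 1 of 10 members is close to the background share. A second member joined at an unadjusted p under 0.05 when a library was left out, which was Bnip3 without Ctrl 1 and Optn without ZA 3. The 95% intervals were narrow. The farthest end of any interval, that of Bnip3, stood at a 1.19-fold change, and those of Sqstm1 and Fkbp8 reached only 1.04-fold and 1.05-fold. All fold changes are differences of log2(FPKM + 1), ZA minus Ctrl, which understate changes of low genes. FPKM gives the sequenced fragments of a gene per base of its length, scaled by the total of the library.

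Macrophage markers checked the label. All 9 markers had a mean FPKM above the limit for testing, and 4 of them lay wholly higher in ZA, as did 11.4% of all genes tested. Csf1r, the M-CSF receptor, had 767 to 777 FPKM in Ctrl and 825 to 848 FPKM in ZA (adjusted p = 0.0699), and Adgre1, an adhesion receptor of mature macrophages, had 526 to 538 and 567 to 593 FPKM (adjusted p = 0.0785). The others were Cd68 and Cd14. The neutrophil marker Ly6g was listed at 0 in all 6 libraries. Of the 11 neutrophil and progenitor markers, 4 lay wholly lower in ZA, namely Mpo (2.28 to 2.64 FPKM in Ctrl, 1.53 to 2.03 in ZA), Elane (2.35 to 2.54 and 1.70 to 2.06), Prtn3 (2.14 to 2.47 and 1.39 to 1.67) and Ngp (3.59 to 5.42 and 3.32 to 3.58). Over all genes tested, 6.76% lay wholly lower in ZA, and 6 of the 11 markers had a mean FPKM of at least 1. The sum of this list, which the more abundant S100a8 and S100a9 dominate, overlapped, at 35.6 to 50.9 FPKM in Ctrl and 31.5 to 37.1 in ZA. These markers were named after their values were seen. The 4 stromal markers summed to 17.8 to 31.6 in Ctrl and 15.9 to 23.0 in ZA. Each of the 4 fell from replicate 1 to replicate 3 in both groups, and was lower in ZA than in the same-numbered Ctrl library. Dcn, for example, had 14.7, 11.8 and 9.02 FPKM in Ctrl 1 to 3 and 9.95, 9.03 and 8.05 FPKM in ZA 1 to 3. The 5 osteoclast markers summed to 40.3 to 46.9 in Ctrl and 38.6 to 42.4 in ZA. T cell and dendritic cell lists stayed under 0.3 FPKM in all libraries. Erythroid markers summed to 0.423 to 2.66 in Ctrl and 0.777 to 1.94 in ZA, and B cell markers to 2.32 to 3.01 and 2.06 to 2.32. The part of these cells in the results was not tested, and in bulk RNA fewer cells of a type and less RNA per cell cannot be told apart. The libraries held between 41230600 and 42155808 counted fragments, and each member had between 789 and 23761 fragments in a library.

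The members' levels spanned more than an order of magnitude, and the order was the same in both groups. Sqstm1 stood highest, followed by Phb2, Fkbp8, Pink1, Bnip3l, Tbk1, Calcoco1, Bnip3, Fundc1 and Optn. In Ctrl the means ran from 99.6 FPKM for Sqstm1 to 6.02 FPKM for Optn. The ranges of Bnip3 and Fundc1 overlapped in Ctrl, as did those of Fkbp8 and Pink1 in ZA, so these neighbours were not apart there, while all other neighbours were. Sqstm1 was higher than 94.2% of the genes tested and Optn than 38.5% of them. The order rests on the gene length used for FPKM. For Sqstm1 that length was 5686 bases, which is 2.79 times the main GENCODE transcript of 2037 bases. It was also longer for Fundc1 (1.76), Fkbp8 (1.74), Optn (1.78), Bnip3l (1.34) and Calcoco1 (1.28). Per base of the main transcript, Fkbp8 came before Phb2 and Fundc1 before Bnip3, with the other ranks as before. Lengths drop out of the ratio of ZA to Ctrl FPKM within a gene, but not fully out of log2(FPKM + 1). With 0.1 added in place of 1, the log2 fold change of Optn was 0.076 rather than 0.067. That of Bnip3 was 0.126 rather than 0.117.

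**Figure D1:**
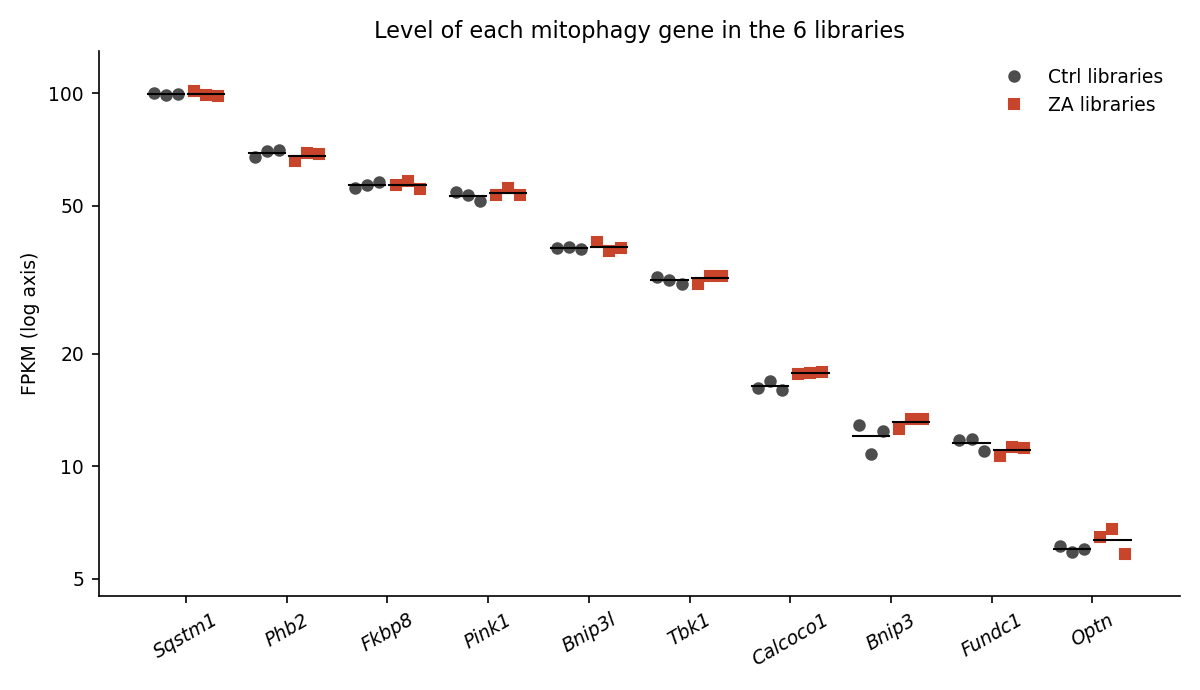
FPKM (log axis) of the 10 mitophagy genes in each Ctrl library (circles) and ZA library (squares), with black lines at the group means, ordered by the Ctrl mean. The 2 groups lie at almost the same height for each gene, while the genes differ from 99.6 FPKM (Sqstm1) to 6.02 FPKM (Optn).

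Promoter sequences from RefSeq (GRCm38.p6, 300 bases each, most of them before the start of transcription) were matched for 9 of the 10 members, all but Bnip3l. Those of Bnip3 and Calcoco1, the members with the largest fold changes, are shown, 5′ to 3′ on the strand of the gene. The capitals mark CACGTG, an E-box that also holds the core of the hypoxia response element (ACGTG), 108 bases upstream of the start of Bnip3, a gene known to be induced by hypoxia.
Bnip3 promoter, chr7:138909457-138909756, minus strand: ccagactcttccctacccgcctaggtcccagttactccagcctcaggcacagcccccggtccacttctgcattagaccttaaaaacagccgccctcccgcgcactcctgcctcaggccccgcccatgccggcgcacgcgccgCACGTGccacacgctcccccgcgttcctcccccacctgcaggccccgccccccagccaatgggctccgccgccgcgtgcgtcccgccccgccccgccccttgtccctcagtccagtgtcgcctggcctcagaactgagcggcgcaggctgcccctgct
Calcoco1 promoter, chr15:102722129-102722428, minus strand: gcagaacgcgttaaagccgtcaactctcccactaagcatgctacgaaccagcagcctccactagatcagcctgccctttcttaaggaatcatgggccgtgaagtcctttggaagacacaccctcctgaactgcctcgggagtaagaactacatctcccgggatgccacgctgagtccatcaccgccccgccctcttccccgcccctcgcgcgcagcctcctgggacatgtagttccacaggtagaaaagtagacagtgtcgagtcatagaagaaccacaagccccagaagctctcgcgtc
On either strand, ACGTG was in the promoters of Bnip3, Fkbp8, Phb2 and Tbk1 (4 of 9) and in 19.6% of 32851 promoters. The E-box CACGTG was in those of Bnip3 and Tbk1 and in 7.15% of all promoters, and every CACGTG also counts as an ACGTG. TGANNNNGC, the core of the antioxidant response element, was in those of Fundc1 and Optn and in 41.3% of all. The AP-1 site TGACTCA was in no member's window and in 5.20% of all. The Calcoco1 window held none of the 4 motifs. These matches describe letters and not bound sites.

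Of the kinases, Pink1, whose product starts the ubiquitin-dependent route, had 54.4, 53.2 and 51.3 FPKM in Ctrl 1 to 3 and 53.4, 55.6 and 53.4 FPKM in ZA 1 to 3. The highest value was that of ZA 2 and the lowest that of Ctrl 3, with the groups overlapping between them. The log2 fold change was 0.03 ± 0.03 (SE), with an adjusted p of 0.727. Tbk1 codes for the kinase that phosphorylates the adaptors optineurin and p62 and also drives type I interferon induction. It had 32.2, 31.6 and 30.7 FPKM in Ctrl and 30.9, 32.4 and 32.3 FPKM in ZA. The 2 highest values were in ZA and the lowest in Ctrl, again with overlap, and the adjusted p was 0.869. The replicate SD of both genes stayed between 2.34% and 3.0% of the mean.

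Of the receptors, Bnip3 and Bnip3l code for related outer-membrane proteins of the BH3-only family. BNIP3L, also called NIX, is known for clearing mitochondria from maturing red cells. Bnip3 had 12.9, 10.8 and 12.4 FPKM in Ctrl and 12.6, 13.4 and 13.4 FPKM in ZA. ZA 2 and ZA 3 lay above every Ctrl library, but ZA 1 lay below Ctrl 1. The Ctrl spread was 9.02% of the mean, the largest of any member, where counting alone gives 3.37% from the 789 to 942 fragments per Ctrl library. The Ctrl mean was 12.03 ± 1.09 FPKM and the ZA mean 13.1 ± 0.466 FPKM (SD, n = 3). The log2 fold change was 0.12 ± 0.06 (SE), with a 95% interval from -0.02 to 0.26 and an adjusted p of 0.477. Ctrl 2 carried much of the difference, since without that library the log2 fold change was 0.05. Bnip3l had 38.5, 38.8 and 38.2 FPKM in Ctrl and 39.8, 37.7 and 38.4 FPKM in ZA. ZA 1 was the highest and ZA 2 the lowest of the 6, so the Ctrl values lay within the ZA range, and the adjusted p was 0.962.

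Judged from GENCODE transcripts, some reads of both genes may not be assigned with certainty, though the annotation behind the counts is not given. Of the 150-base stretches of Bnip3 transcripts, 13.5% also occur in other annotated transcripts, most of them in the antisense gene Gm45507, which overlaps 22.3% of its exon bases. No row of the deposited table was found for Gm45507. Of the stretches of Bnip3l, 9.27% are shared with the pseudogene Bnip3l-ps, which was listed at 7.16 to 9.03 FPKM. For Sqstm1, 11.9% are shared with the overlapping antisense gene Mrnip, listed at 0.349 to 0.564 FPKM. Whether counting used the strand is not given in the sources used here, so these partners may not have been told apart fully.

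Fundc1 codes for an outer-membrane receptor regulated by phosphorylation under hypoxia. It had 11.7, 11.8 and 10.99 FPKM in Ctrl and 10.7, 11.2 and 11.2 FPKM in ZA. Its log2 fold change, -0.06 ± 0.04 (SE), was the most negative of the members, but Ctrl 3 lay below ZA 2 and ZA 3, and the adjusted p was 0.599. Phb2, whose product is an inner-membrane prohibitin that is exposed when the outer membrane ruptures, had 67.4, 69.9 and 70.3 FPKM in Ctrl and 65.8, 69.2 and 68.9 FPKM in ZA. The first replicate was the lowest of its group on both sides, and the adjusted p was 0.766. Fkbp8 codes for a tail-anchored outer-membrane protein that binds LC3 and also the apoptosis inhibitor BCL2. It had 55.7, 56.6 and 57.8 FPKM in Ctrl and 56.7, 58.3 and 55.5 FPKM in ZA. ZA 3 was the lowest and ZA 2 the highest of the 6, so the Ctrl range lay within that of ZA, with an adjusted p of 0.986. Across the 5 receptors, 3 log2 fold changes were positive and 2 negative, with a median of 0.002, and Bnip3l and Fkbp8 changed sign when the libraries were centred on their medians.

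**Figure D2:**
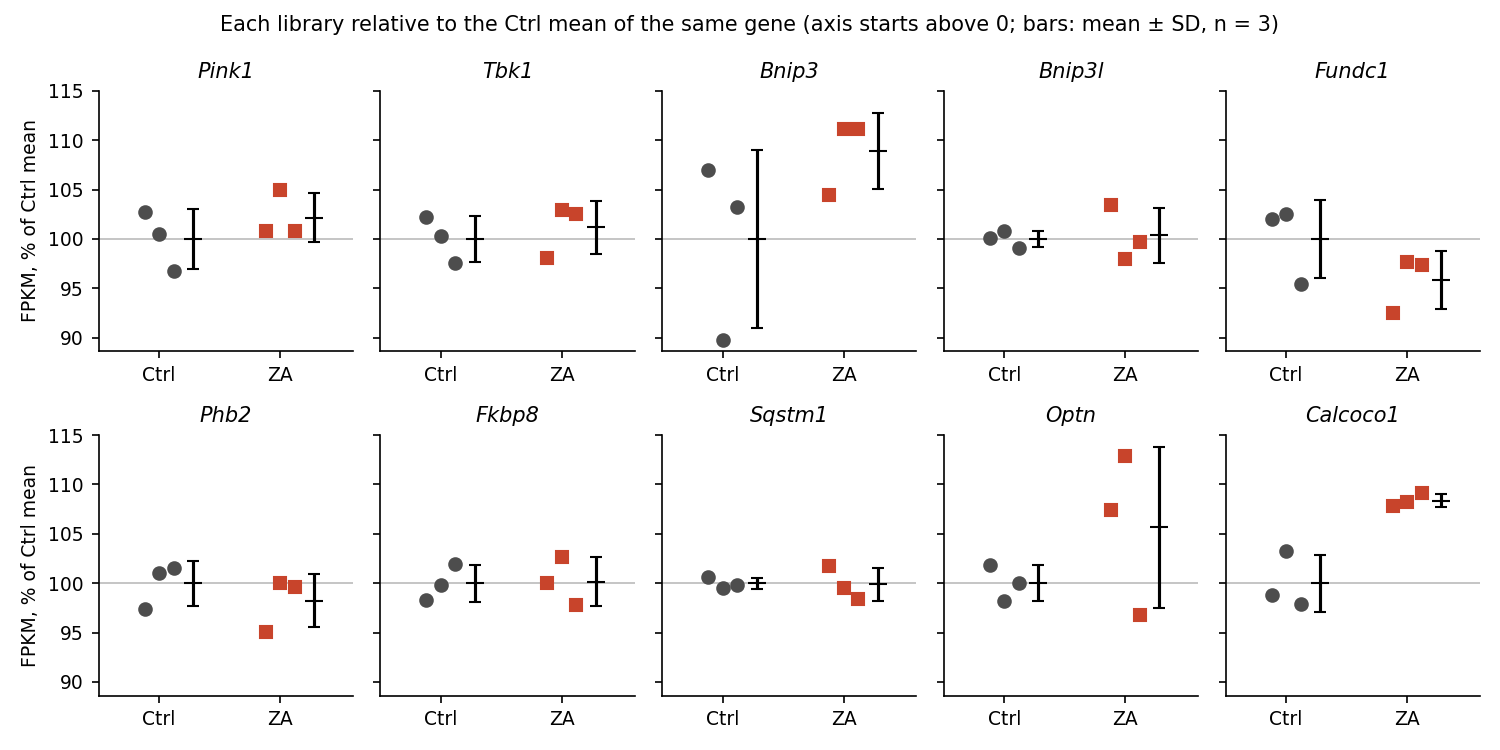
FPKM of each library as a percentage of the Ctrl mean of the same gene (vertical axis from about 90 to 115%), with Ctrl as circles, ZA as squares and bars for the mean ± SD (n = 3). In Calcoco1 the ZA points lie above the Ctrl points, the other 9 genes overlap, and the wide bars of Bnip3 in Ctrl and Optn in ZA each come from a library that stands away from the other 2.

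Of the soluble adaptors, Sqstm1 codes for p62, which gathers ubiquitin-marked cargo and is itself degraded by autophagy. It had 100.3, 99.2 and 99.4 FPKM in Ctrl and 101.3, 99.1 and 98.0 FPKM in ZA. Its log2 fold change was -0.002 ± 0.02 (SE), with an interval from -0.05 to 0.05 and an adjusted p of 0.984. The Ctrl values lay within the ZA range, and in Ctrl the SD, 0.579% of the mean, was near the counting error of 0.651%. Optn codes for optineurin, a main adaptor of the PINK1 pathway and a substrate of TBK1. It was the lowest member, with 6.12, 5.91 and 6.02 FPKM in Ctrl and 6.46, 6.79 and 5.82 FPKM in ZA. ZA 1 and ZA 2 lay above every Ctrl library while ZA 3 lay below all of them, and the ZA spread was 7.71% of the mean against a counting error of 2.85%. The log2 fold change was 0.07 ± 0.05 (SE), with an adjusted p of 0.637. It was 0.12 without ZA 3 and 0.02 without ZA 2.

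Calcoco1 codes for a relative of the adaptor NDP52 that is known as a receptor for autophagy of the endoplasmic reticulum and Golgi. It had 16.2, 16.9 and 16.1 FPKM in Ctrl and 17.7, 17.7 and 17.9 FPKM in ZA. Every ZA library lay above every Ctrl library, and the nearest pair were Ctrl 2 and ZA 1. The Ctrl mean was 16.4 ± 0.472 FPKM and the ZA mean 17.8 ± 0.112 FPKM (SD, n = 3), which is 8.37% higher. The log2 fold change of 0.11 ± 0.03 (SE), with a 95% interval from 0.04 to 0.18, had an unadjusted p of 0.00673 with limma and did not pass the adjustment over all genes (adjusted p = 0.207). The ZA spread, 0.631% of the mean, was below the 1.94% that counting gives for 2625 to 2717 fragments in a library. In absolute log2 fold change it ranked above 87.6% of all genes tested, and Bnip3 above 89.1%. Sums of T cell, B cell and dendritic cell markers also did not overlap between the groups. They were 0.235 to 0.291, 2.324 to 3.01 and 0.125 to 0.158 FPKM in Ctrl and 0.0955 to 0.213, 2.06 to 2.319 and 0.223 to 0.295 FPKM in ZA. Taken singly, 1 of 3 T cell markers (Cd3g) and 0 of 4 B cell markers lay wholly lower in ZA. Of 3 dendritic cell markers, 2 lay wholly higher, Zbtb46 and Cd209a, at no more than 0.0437 and 0.162 FPKM. Over all genes tested, 6.76% lay wholly lower and 11.4% wholly higher. The 4 of 9 macrophage markers and 4 of 11 neutrophil and progenitor markers given above were apart as well. The part of these cells in the Calcoco1 values was not tested.

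**Figure D3:**
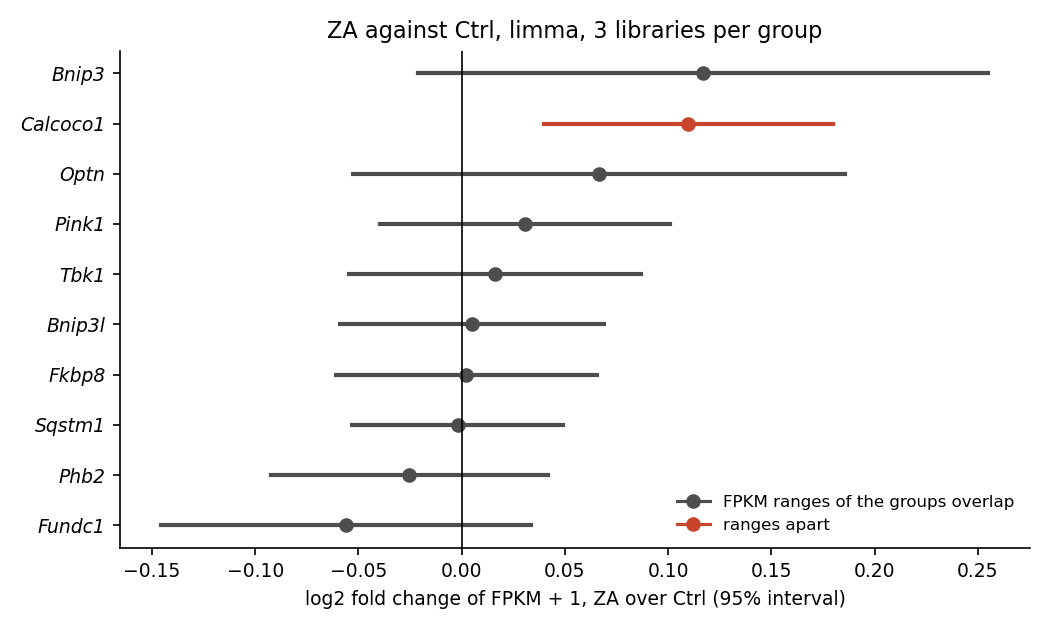
log2 fold change of FPKM + 1 (ZA over Ctrl, limma, 3 libraries per group) for each member as a point, with its 95% interval as a line, ordered by size. The interval of Calcoco1 (0.04 to 0.18) alone stays clear of 0, and its adjusted p was 0.207.

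Because FPKM is given per length, members with related roles were also set against each other within each library. The level of each ratio rests on the lengths used. These were 2.79 times the main transcript for Sqstm1, 1.78 for Optn, 1.34 for Bnip3l, 1.28 for Calcoco1 and 1 for Bnip3. The difference of the log2 ratios between the groups does not depend on them. In Ctrl the ratio of Bnip3l to Bnip3 came to 2.99, 3.59 and 3.07, and in ZA to 3.17, 2.82 and 2.87. Only Ctrl 2, the library with the low Bnip3 value, stood above the ZA range, and the groups overlapped (exact permutation test, two-sided, p = 0.3, adjusted over 3 ratios 0.4). In Ctrl the ratio of Optn to Sqstm1 came to 0.0611, 0.0595 and 0.0605, and in ZA to 0.0638, 0.0685 and 0.0594, with ZA 3 below every Ctrl library (exact permutation p = 0.4, adjusted 0.4). In Ctrl the ratio of Calcoco1 to Sqstm1 came to 0.161, 0.171 and 0.161, and in ZA to 0.174, 0.179 and 0.182. These groups did not overlap, and the difference of the log2 ratios was 0.12. The exact permutation p was 0.1, the smallest that 3 against 3 libraries allow, and 0.3 after adjustment, so this design cannot reach 0.05. This ratio rests on the same Calcoco1 values and is not a separate result.

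Around the members, 75 other genes in 5 lists were read in the same fit. Of these, 74 were tested, 0 had an adjusted p under 0.05 with limma, 3 had an unadjusted p under 0.05 with ZA higher (4.05%) and 4 with ZA lower (5.41%), where all genes gave 7.50% and 4.85%. The count with ZA lower was 1 without Ctrl 2 or Ctrl 3, 2 without ZA 3, and 7 with libraries centred on their medians or quantile normalized. The ranges did not overlap for 9 genes with ZA higher (12.2%) and 6 with ZA lower (8.11%), against 11.4% and 6.76% of all genes. Their median log2 fold change was 0.003. The 1 gene not tested, Calcoco2, the mouse gene for NDP52, was listed at 0 in all 6 libraries.

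Of 27 partners of the PINK1 pathway, all tested, 1 had an unadjusted p under 0.05. This was Pgam5, a mitochondrial phosphatase that acts on FUNDC1, with 11.5 ± 0.0638 FPKM in Ctrl and 12.7 ± 0.278 FPKM in ZA. Its log2 fold change was 0.13, with an adjusted p of 0.131 and no overlap. The most negative statistic belonged to Tomm40, the channel of the import complex that takes up PINK1, with a log2 fold change of -0.09 and an adjusted p of 0.413. The list median was 0.002.

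Among 17 other receptors and receptor regulators, all tested, 2 had an unadjusted p under 0.05, both with ZA lower. Cisd1, an iron-sulfur protein of the outer membrane, had 15.2 ± 0.561 FPKM in Ctrl and 13.5 ± 0.330 FPKM in ZA. Its log2 fold change of -0.16 was the most negative of the 74 genes, with no overlap and an adjusted p of 0.128. The other was Bcl2l1, which codes for BCL-XL, at -0.07 (adjusted p = 0.328), named after its value was seen. The largest positive statistic was that of Ulk1, the kinase that starts autophagosome formation and phosphorylates FUNDC1, at 0.08 (adjusted p = 0.531), which was 0.03 without ZA 1.

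Of 11 other adaptors and Atg8 proteins, 10 were tested, with a median log2 fold change of -0.002. Gabarapl1, an Atg8 protein, had 106.8 ± 0.538 FPKM in Ctrl and 102.5 ± 2.48 FPKM in ZA, a log2 fold change of -0.06 with an unadjusted p of 0.0417 and an adjusted p of 0.383. Ncoa4, the receptor for autophagy of ferritin, had the largest positive statistic, at 0.04 (adjusted p = 0.525), which was 0.02 without ZA 1.

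No TBK1 partner was called. Of 9 genes, 8 had a positive log2 fold change, as did 56.9% of all genes tested. The number was 7 with libraries centred on their medians, with quantile normalization, and without Ctrl 2, Ctrl 3 or ZA 3. The median was 0.06 where that of all genes was 0.01. Without ZA 2 it was 0.02. Ikbke, which codes for IKK epsilon, the closest relative of TBK1, had 45.9 ± 1.39 FPKM in Ctrl and 48.7 ± 0.581 FPKM in ZA, a log2 fold change of 0.09 with an unadjusted p of 0.0163 and an adjusted p of 0.284. Its groups did not overlap. Tank, a scaffold of TBK1, was the 1 gene with a negative value, at -0.04 (adjusted p = 0.724), which was -0.01 without Ctrl 1 or without ZA 3.

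Of 11 transcription factors known to act on these genes, 1 had an unadjusted p under 0.05 in each direction. Nfe2l2 codes for NRF2, which is known to induce Sqstm1, and had 137.5 ± 1.997 FPKM in Ctrl and 142.5 ± 1.13 FPKM in ZA (log2 fold change 0.05, unadjusted p = 0.0415, adjusted p = 0.383). Hif1a, the hypoxia factor known to induce Bnip3, had 20.9 ± 0.263 FPKM in Ctrl and 19.6 ± 0.926 FPKM in ZA (log2 fold change -0.09, unadjusted p = 0.0466, adjusted p = 0.398), and its groups overlapped. Beside these values, Sqstm1 stood at -0.002 and Bnip3 at 0.12 on the same scale. All of these are RNA levels, which do not measure the protein or the activity of a factor, and a link between them was not tested.

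**Figure D4:**
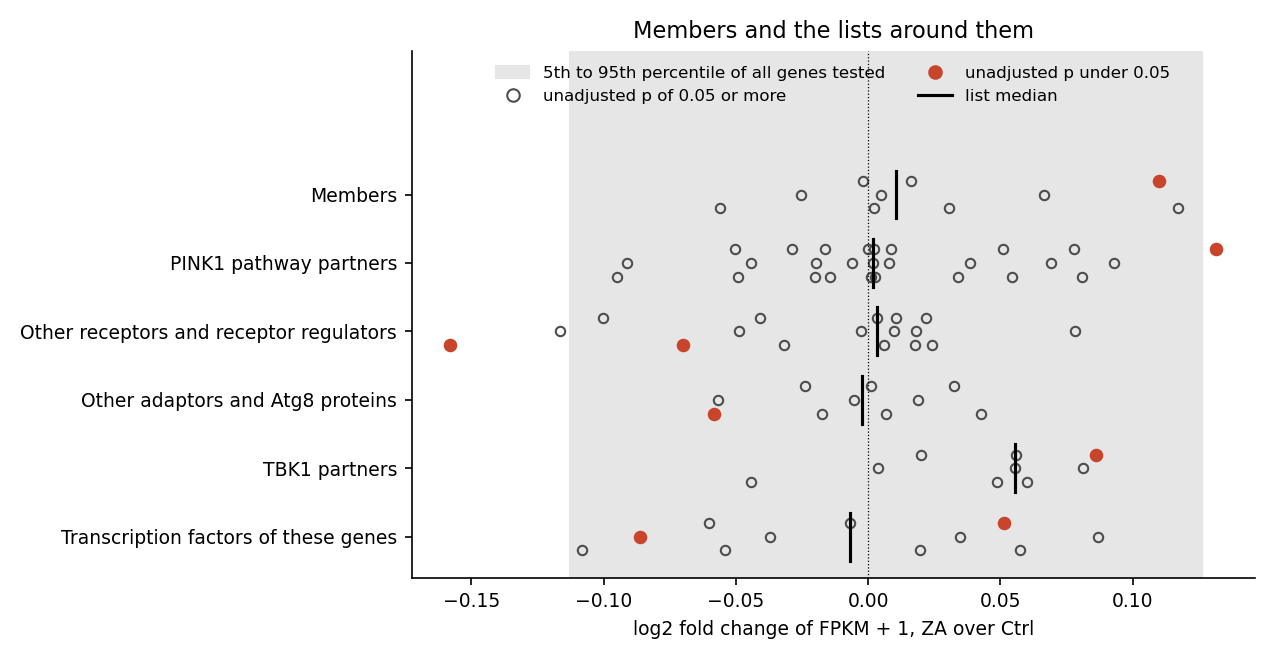
log2 fold change of FPKM + 1 (ZA over Ctrl) for the tested genes of the members and of 5 further lists, 1 point a gene with height within a row only to separate points, filled where the unadjusted p is under 0.05, with a black line at each list median and a grey band from the 5th to the 95th percentile of all 9799 genes tested (-0.11 to 0.13). All 10 members lie within the band.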

How the data were processed

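RNA was sequenced as 150-base paired reads. The authors deposited 1 table of FPKM values per gene, and the submitters' processing notes name the build mm9. The aligner, counter and annotation are not given in the sources used here. Nearly all rows of the table had lost the separators between their values. Rows were cut by number format and by the rule that an FPKM stands for a whole number of fragments, which restored 35415 of 35434 rows and returned the 11 intact rows identically. The 19 others were left out.

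Genes whose FPKM averaged 1 or more were fitted as log2(FPKM + 1) with limma 3.58.1 (R 4.3.3, trended prior), and p-values were adjusted by Benjamini-Hochberg over 9799 genes. The procedure was tested on simulated data. Ratios were tested by exact permutation (SciPy 1.17.1). Intervals are at 95%. Members and lists were chosen with earlier results of these data known. All members are named, and from each further list the genes with the largest positive and negative statistic, those with an adjusted p under 0.05 and those not tested. An item of 1 list is not reported here. No 2 libraries of the same group agreed within sampling noise. Alternatives covered pseudocount, filter, scaling, prior, replicate block, each library left out and, added after seeing the data, voom on recovered fragments and main-transcript lengths.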

Additional observations from a re-analysis of the deposited data

How the results depend on the processing

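Under the 14 alternatives, 0 of the 10 members had an adjusted p under 0.05, nor did any gene of the further lists. Several of these settings called few genes in the whole table, as given below, so the count there could hardly differ from 0. Of 140 member values, 13 changed sign, all of them small. Bnip3l was at -0.0075 with libraries centred on the median and -0.0023 with quantile normalization, and between -0.016 and 0.022 with a library left out (negative without Ctrl 3 or ZA 1). Fkbp8 was at -0.010 when centred and -0.0010 with quantile normalization, and between -0.016 and 0.019 with a library left out (negative without Ctrl 1 or ZA 2). Sqstm1 was at 0.016 with quantile normalization and between -0.015 and 0.0086 with a library left out (positive without Ctrl 1, ZA 2 or ZA 3). Tbk1 lay between -0.0012 (without Ctrl 3) and 0.038 with a library left out. Centring moved the split of members from 7 positive and 3 negative to 5 and 5. Calcoco1 stayed between 0.10 and 0.13, with an unadjusted p of 0.0043 to 0.027 and an adjusted p of 0.154 to 0.419. The 36 calls among all genes depended on the setting: 1 with no filter, 20 with quantile normalization, 1 with a prior without trend, 132 with voom on recovered fragments, and 0 to 25 with a library left out, the 0 being without ZA 2. The cause was not tested.

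Same-numbered libraries deviated together only in part (correlations 0.284, 0.0393 and 0.28), although the stromal markers fell from replicate 1 to replicate 3 in both groups. The sources name no pairs, so the main fit took none, and a shift within pairs may be missed by it. With a replicate block the calls among all genes were 78 and those among members 0, and the 3 ratios kept their differences (-0.12, 0.08 and 0.12, exact sign-flip p of 0.5, 0.5 and 0.25). With a library left out, the ratio of Bnip3l to Bnip3 differed by -0.17 to -0.04, that of Optn to Sqstm1 by 0.03 to 0.13 and that of Calcoco1 to Sqstm1 by 0.10 to 0.15.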
